A study of Mus musculus with 6 samples.

Results

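Matrix metalloproteinases are zinc-dependent enzymes that cut collagens and other proteins of the extracellular matrix, and the tissue inhibitors of metalloproteinases (TIMPs) bind and block them. Expression of 8 of these enzymes (Mmp2, Mmp8, Mmp9, Mmp12, Mmp13, Mmp14, Mmp19 and Mmp25) and of the inhibitors Timp1 and Timp2 was examined in mouse bone marrow-derived dendritic cells. The enzymes are made as inactive precursors with a propeptide that has to be removed, some outside the cell and some by furin-type convertases on the way to the surface. Dendritic cells and macrophages use them to move through tissue, to remodel matrix and to trim cytokines and surface receptors, and a TIMP can also help, since Timp2 bridges Mmp14 and the Mmp2 precursor at the cell surface.

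The 10 genes are 10 of 19057 with a single-gene probe on the array, and were matched by symbol. They were chosen from results of the same MR-positive against MR-negative contrast, so their values are a description and carry no test. They had 15 probes, of which 13 were detected on at least 3 of 6 arrays (detection p under 0.05) and entered the fit, and each gene kept at least 1 tested probe. All cells came from mouse marrow grown for 1 week with the growth factor GM-CSF, and all were then fed ovalbumin carrying a fluorescent dye. The MR-positive cells and the MR-negative cells were separated by flow sorting on that ovalbumin signal, taken as a readout of the mannose receptor (MR), an endocytic lectin. There were 3 Illumina bead arrays of MR-positive and 3 of MR-negative cells, titled M1 to M3 in each population. The labels give no strain, sex or age and no genetic change, and do not say what the numbers stand for, so the spread between arrays may be technical.

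Values are normalized log2 intensities of single probes, read against each other only within a probe, and the number of arrays limits their precision. Each array detected 15988 to 16641 of 45281 probes. Mrc1, the gene of the mannose receptor, averaged 12.03 ± 0.56 (SD, n = 3) in MR-positive cells and 9.40 ± 0.69 (SD, n = 3) in MR-negative cells. Of the dendritic cell markers, Itgax was detected on every array while Flt3 was detected on none. In sorted bulk samples, fewer cells of a type and less RNA per cell cannot be told apart.

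The stretches just before the annotated starts of 5 of the genes are printed because 3 of them (Mmp13, Mmp12 and Mmp8) lie in 1 gene cluster and differed unequally between the populations, and because Mmp14 and Mmp25 moved in opposite directions. Sequences are RefSeq promoters of GRCm38.p6, the last 150 bases before the start on the gene's own strand, 5′ to 3′. The table held a window for 7 of the 10 genes, and Mmp12 has a pair of annotated starts. Capitals mark the letters of 5 motifs searched on both strands in the 250 bases before each start: AP-1 (TGANTCA), PEA3 (AGGAAG), Runx (TGTGGT), a core promoter box (TATAAA) and a nuclear receptor half-site (AGGTCA). Their shares among 32851 mouse promoter windows of that length were 6.75%, 29.5%, 14%, 12.4% and 14%, in the same order. The windows shown are chr9:7272364-7272513 on the plus strand for Mmp13, chr9:7344247-7344396 and chr9:7347224-7347373 on the plus strand for Mmp12, chr9:7558279-7558428 on the plus strand for Mmp8, chr14:54431448-54431597 on the plus strand for Mmp14 and chr17:23645270-23645419 on the minus strand for Mmp25.
Mmp13: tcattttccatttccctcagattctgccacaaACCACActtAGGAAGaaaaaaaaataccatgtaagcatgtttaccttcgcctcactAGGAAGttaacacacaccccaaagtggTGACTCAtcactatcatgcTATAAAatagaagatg
Mmp12, upstream start: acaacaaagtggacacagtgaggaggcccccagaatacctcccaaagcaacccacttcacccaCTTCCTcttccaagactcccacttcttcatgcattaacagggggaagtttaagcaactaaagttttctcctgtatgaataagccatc
Mmp12, downstream start: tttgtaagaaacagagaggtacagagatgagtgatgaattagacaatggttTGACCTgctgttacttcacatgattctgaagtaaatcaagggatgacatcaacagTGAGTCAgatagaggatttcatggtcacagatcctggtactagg
Mmp8: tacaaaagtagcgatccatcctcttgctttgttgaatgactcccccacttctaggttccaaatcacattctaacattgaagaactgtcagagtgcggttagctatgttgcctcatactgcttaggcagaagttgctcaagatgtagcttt
Mmp14: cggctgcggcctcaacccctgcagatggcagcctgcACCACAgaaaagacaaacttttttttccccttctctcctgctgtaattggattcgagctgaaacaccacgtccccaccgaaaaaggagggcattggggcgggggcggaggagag
Mmp25: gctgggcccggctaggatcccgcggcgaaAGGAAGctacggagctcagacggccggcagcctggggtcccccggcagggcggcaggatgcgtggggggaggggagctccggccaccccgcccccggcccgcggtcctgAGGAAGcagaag

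The Mmp13 window held an AP-1 match 35 to 29 bases before the start, the core promoter box at 16 to 11 bases, PEA3 matches starting 109 and 62 bases before it, and 1 Runx match. An AP-1 match also lay 44 to 38 bases before the downstream start of Mmp12, with a half-site farther off at 99 to 94 bases. The upstream start of Mmp12 had 1 PEA3 match. Mmp8 had a PEA3 match 220 bases before its start, outside the stretch shown. In Mmp14 a Runx match lay 114 bases and a PEA3 match 209 bases before the start. Mmp25 had PEA3 matches 121 and 12 bases before its start, Timp1 had matches of the same motif at 175 and 99 bases, and the window of Timp2 held none of the 5. The windows of Mmp13 and Mmp12 were 39.6% to 40.4% G and C, against 66% for Mmp25 and 68% for Timp2. A match says only that these letters are present.

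By their brightest tested probe 6 of the 10 genes were higher in MR-positive cells (Mmp13, Mmp14, Mmp12, Mmp19, Timp1 and Timp2), while Mmp25 was lower, and Mmp8, Mmp9 and Mmp2 had overlapping populations. In the fit over all 16686 tested probes, 9 of the 13 member probes were higher and 1 was lower at an adjusted p under 0.05 (limma), where 7.19% of all tested probes were higher, 6.58% were lower and 13.8% passed in either direction. The MR-positive and MR-negative values did not overlap for 10 of the 13, against 32.8% of all tested probes. With the title number as a block, 10 of the 13 passed, against 27.7% of all probes. Because the genes were chosen with this contrast known, nothing is read from these counts. The median difference of the 13 probes was 1.31, beside 0.02 for all tested probes.

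**Figure D1:**
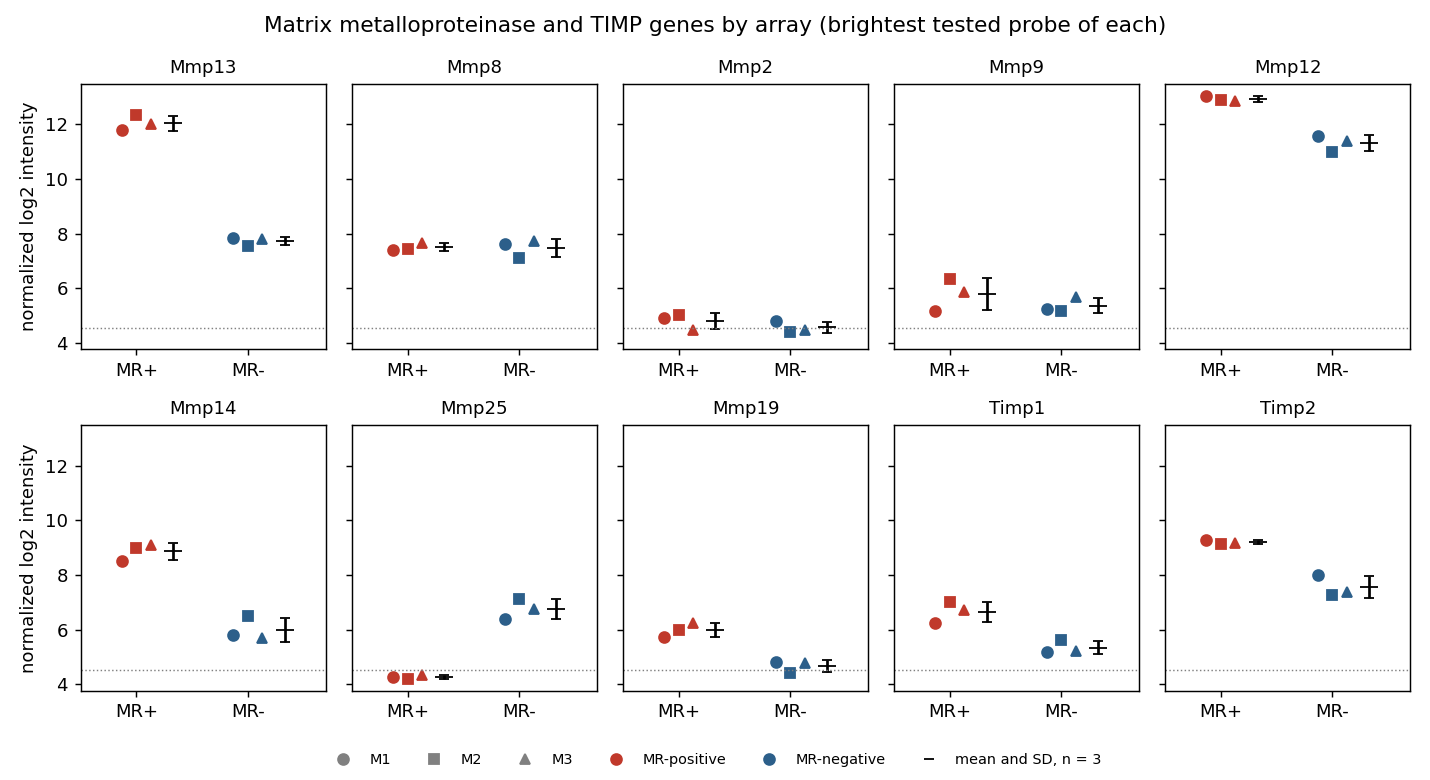
Normalized log2 intensity of the brightest tested probe of each gene, with MR-positive arrays on the left and MR-negative arrays on the right of each panel; symbols stand for M1 to M3, the bar for the mean and SD (n = 3), and the dotted line for the detection limit (4.53), averaged over arrays from the weakest detected signal of each. Mmp13 shows the widest separation, at 11.80 to 12.35 against 7.56 to 7.82, Mmp25 lies below the line on all MR-positive arrays, and Mmp8, Mmp9 and Mmp2 overlap.

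Among the collagenases, the enzymes that cut the triple helix of fibrillar collagen, Mmp13 had the largest difference of all tested probes in the direction of higher in MR-positive cells. Its brightest probe (ILMN_2737685) read 11.80, 12.35 and 11.997 on the MR-positive arrays M1, M2 and M3, against 7.82, 7.56 and 7.80 on the MR-negative arrays M1, M2 and M3. The lowest MR-positive array stood 3.98 above the highest MR-negative one. The deposited signals behind these values, before background correction, were 3328, 5050 and 3647 in MR-positive cells, against 257, 208 and 249 in MR-negative cells. The mean difference was 4.32 ± 0.17 (SE) on the log2 scale, or 20.0-fold.

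The other Mmp13 probes differed by less. Probe ILMN_1249336 read 7.47, 8.35 and 7.86 in MR-positive cells, against 4.44, 4.43 and 4.64 in MR-negative cells, where it was detected on 1 of 3 arrays. Its MR-positive mean was at least 10.1-fold higher, with a fitted difference of 3.39 ± 0.22. Probe ILMN_2799267 read only 4.96, 5.29 and 5.36 in MR-positive cells, against 4.67, 4.45 and 4.53 in MR-negative cells (2 of 3 arrays detected it). That difference was 0.65 ± 0.15, or at least 1.55-fold, and both populations lay near the detection limit. All 3 probes were higher on every MR-positive array than on any MR-negative array, and on all 3 M1 had the lowest MR-positive value. All are annotated to the same transcript record, and what part of Mmp13 each one matches was not analysed here.

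Mmp8, known as the neutrophil collagenase, was detected on every array and did not separate the populations. It read 7.41, 7.45 and 7.67 in MR-positive cells, against 7.60, 7.10 and 7.72 in MR-negative cells. The highest and the lowest value both belonged to MR-negative arrays, and the difference was 0.03 ± 0.18. By title number the differences were -0.19, 0.34 and -0.05 for M1, M2 and M3, so that the sign changed between numbers.

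The gelatinases cut denatured collagen and the type IV collagen of basement membranes. Mmp9, which myeloid cells and osteoclasts release, read 5.16, 6.34 and 5.86 in MR-positive cells, against 5.26, 5.18 and 5.67 in MR-negative cells. The difference of 0.42 ± 0.29 rested on M2, where it was 1.16, beside -0.10 for M1 and 0.19 for M3, and it was 0.14 on dropping M2 and 0.73 on dropping M1 of the MR-positive arrays. Mmp2, which is typical of stromal cells, was close to the detection limit, detected on 2 of 3 MR-positive and 1 of 3 MR-negative arrays. Its values were 4.92, 5.01 and 4.46 in MR-positive cells, against 4.80, 4.41 and 4.48 in MR-negative cells, a difference of 0.23 ± 0.19 with overlapping populations. That difference was 0.12 on dropping M2 and 0.40 on dropping M3 of the MR-positive arrays, and 0.35 on dropping M1 of the MR-negative arrays.

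Mmp12, the macrophage elastase, had strong signals in both populations. The probe read 13.05, 12.89 and 12.85 in MR-positive cells, against 11.58, 10.99 and 11.39 in MR-negative cells. Its deposited signals of 7033, 7029 and 6144 in MR-positive cells compare with 3266, 2142 and 2895 in MR-negative cells. The groups did not overlap, and the difference was 1.61 ± 0.17, or 3.05-fold, with 1.47, 1.89 and 1.46 for M1, M2 and M3.

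The membrane-anchored enzymes went opposite ways. Mmp14, a transmembrane collagenase that also activates the precursors of Mmp2 and Mmp13, read 8.49, 9.003 and 9.09 in MR-positive cells, against 5.79, 6.48 and 5.68 in MR-negative cells. The lowest MR-positive array lay 2.02 above the highest MR-negative one, and the difference was 2.88 ± 0.25, or 7.36-fold. A further Mmp14 probe (ILMN_1225091), annotated to another transcript record, was detected on 1 of 6 arrays, an MR-negative one, and was not tested. Mmp25, which is held in the membrane by a lipid anchor and is known from human neutrophils, read 4.27, 4.21 and 4.35 in MR-positive cells, against 6.37, 7.12 and 6.75 in MR-negative cells. It was detected on none of the MR-positive and all of the MR-negative arrays, and was at least 4.60-fold lower in MR-positive cells, with a fitted difference of -2.47 ± 0.19. Among the 13 tested probes it was the only one lower under all 3 title numbers (-2.09, -2.92 and -2.40 for M1, M2 and M3).

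Mmp19, a secreted enzyme that cuts basement membrane proteins, was dim. Its tested probe read 5.72, 5.98 and 6.24 in MR-positive cells, against 4.80, 4.41 and 4.79 in MR-negative cells, where 2 of 3 arrays detected it. The populations did not overlap, and the MR-positive mean was at least 2.43-fold higher, with a fitted difference of 1.31 ± 0.18. Its other probe was not detected on any array.

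Both inhibitors were higher in MR-positive cells. Timp1, a secreted inhibitor that also binds the Mmp9 precursor, had a pair of probes that gave alike values. The brighter read 6.25, 6.99 and 6.70 in MR-positive cells, against 5.18, 5.60 and 5.23 in MR-negative cells, a difference of 1.31 ± 0.21. The other read 6.14, 6.71 and 6.72 in MR-positive cells, against 4.82, 5.11 and 5.48 in MR-negative cells, a difference of 1.39 ± 0.22. Neither probe's groups overlapped.

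Timp2, which inhibits Mmp14 and couples it to the Mmp2 precursor, read 9.27, 9.13 and 9.18 in MR-positive cells, against 8.01, 7.28 and 7.38 in MR-negative cells. The MR-positive arrays had an SD of 0.07 and the groups did not overlap. The difference was 1.64 ± 0.20, or 3.11-fold. Mmp14 differed by more than Timp2 under each title number, at 2.71, 2.53 and 3.41 for Mmp14 and 1.26, 1.85 and 1.81 for Timp2. These are differences of separate probes, whose response to RNA need not be the same, and the contrast between them was not tested.

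**Figure D2:**
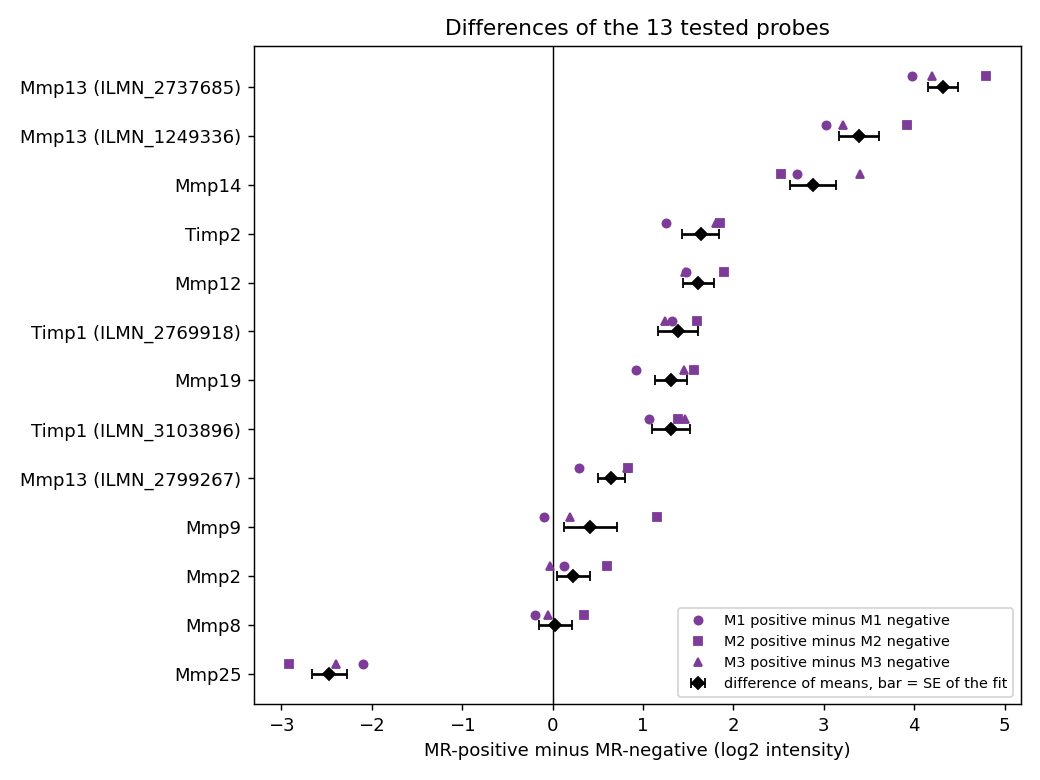
MR-positive minus MR-negative log2 intensity of the 13 tested probes; diamonds give the difference of the means with the SE of the fit, and purple symbols the difference within each title number. From Mmp13 at 4.32 down to its dimmest probe at 0.65 all symbols lie right of 0, those of Mmp9, Mmp2 and Mmp8 lie on both sides of it, and those of Mmp25 lie left of it.

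The arrays of a population were not alike. Of the 9 probes that were higher in MR-positive cells, 7 had their lowest MR-positive value on M1, and Mmp12 and Timp2 had their highest there. Mrc1 also had its highest value on the MR-positive array of M1, at 12.67 beside 11.66 for M2 and 11.76 for M3. With 1 array left out in turn, the difference was 4.17 to 4.44 for the brightest Mmp13 probe, 2.73 to 3.13 for Mmp14 and -2.66 to -2.28 for Mmp25. For Mmp8 the sign turned, with values from -0.15 to 0.16.

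**Figure D3:**
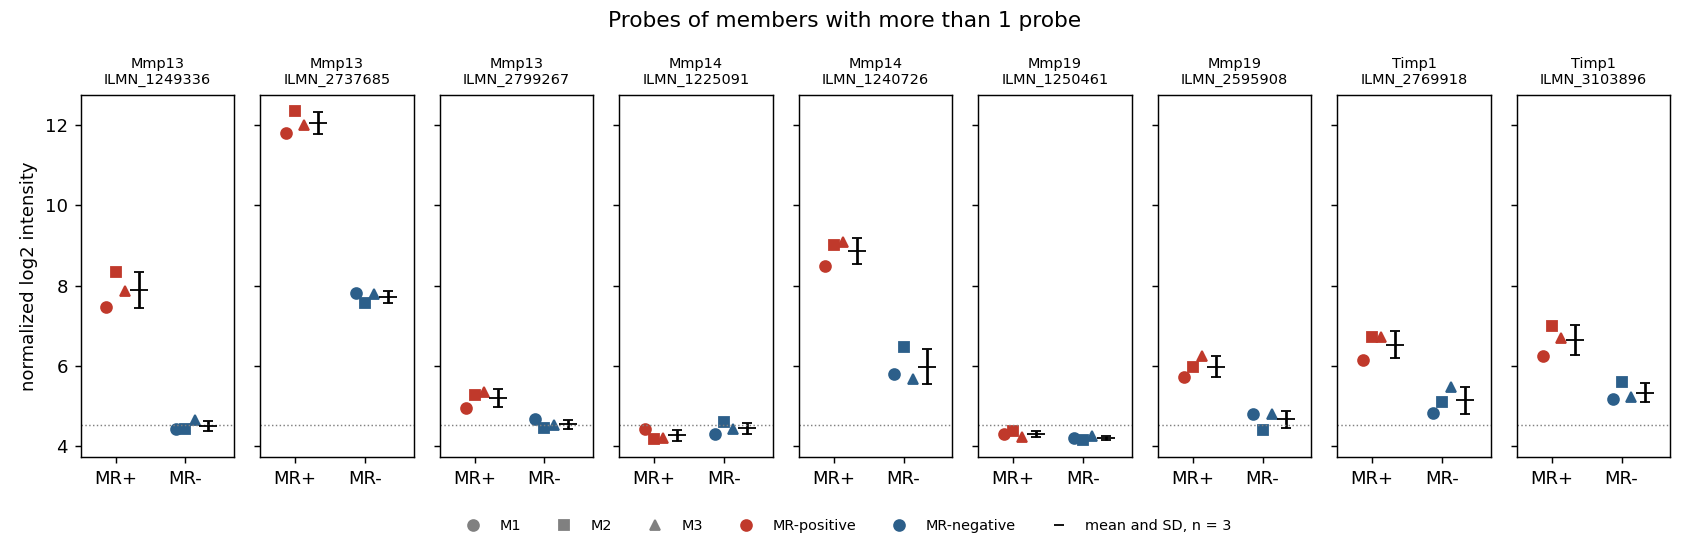
Normalized log2 intensity of every probe of Mmp13, Mmp14, Mmp19 and Timp1, with MR-positive arrays left of MR-negative arrays and the mean and SD (n = 3) beside them; the dotted line is the detection limit averaged over arrays (4.53). The Timp1 probes match in size, the Mmp13 probes range from 4.32 to 0.65 in difference, and an Mmp14 and an Mmp19 probe lie near or below the line.

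Of the other MMP and TIMP genes few were measurable. The array held probes for 15 such genes, of which 10 were detected on no array, Timp3 on 1, and 4 had a tested probe. None of the 4 passed in limma, and 0 had an unadjusted p under 0.05. Mmp23 differed by -0.16 ± 0.11 (adjusted p = 0.44) and was detected on no MR-positive and all MR-negative arrays (at least 1.04-fold lower), while Mmp28 differed by 0.12 ± 0.12 (adjusted p = 0.60). The remaining tested genes were Mmp24 (0.18 ± 0.22, and 0.33 ± 0.27 on another probe) and Mmp1a (0.12 ± 0.13, and -0.21 ± 0.20 on another probe). Mmp1b, a relative of Mmp1a, had its own probe, which was detected on no array. Whether the Mmp1a probes also bind Mmp1b was not analysed here.

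In the RefSeq gene order 10 of the MMP genes sit next to each other on chromosome 9, as Mmp13, Mmp12, Mmp1b, Mmp3, Mmp1a, Mmp10, Mmp8, Mmp27, Mmp20 and Mmp7. Of the 9 with a probe, 4 were tested. The neighbours Mmp13 and Mmp12 at 1 end were 4.32 and 1.61 higher in MR-positive cells by their brightest probes. Mmp1a differed by 0.12, or by -0.21 on its other tested probe, and Mmp8 by 0.03. Mmp1b, Mmp3, Mmp10, Mmp20 and Mmp7 were detected on none of the 6 arrays. The other members lie on separate chromosomes, Mmp9 on 2, Mmp2 on 8, Mmp19 on 10, Timp2 on 11, Mmp14 on 14, Mmp25 on 17 and Timp1 on X.

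Around the enzymes stand the proteases that activate them, the proteins that bind or clear them, the matrix they cut and the factors that bind their promoters. Lists of 107 such genes, the other MMP and TIMP genes included, had 47 tested genes, of which 9 rose, 2 fell and 36 did not pass (limma, 1 probe per gene), where 8.19% of all 9370 tested genes rose and 7.13% fell. With the title number as a block 13 rose and 5 fell. Because the lists were chosen with earlier results of these data known, these counts and the p-values below are a description.

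Among activators and convertases, 2 of 8 tested genes rose and 1 fell, with a median difference of -0.03. Plau, the urokinase that turns plasminogen into plasmin, averaged 8.64 ± 0.27 in MR-positive cells and 6.50 ± 0.57 in MR-negative cells (SD, n = 3 each) and rose by 2.14 ± 0.29 (limma adjusted p = 0.0034). Furin, the convertase that removes the propeptide of Mmp14, rose by 0.66 ± 0.18 (adjusted p = 0.0499). This call was lost on dropping M1 (0.091), M2 (0.067) or M3 (0.113) of the MR-positive arrays, or M2 (0.151) or M3 (0.150) of the MR-negative arrays, with equal medians (0.112) and with no filter (0.151). A further Furin probe differed by 0.59 ± 0.20 (adjusted p = 0.11). Prtn3, a serine protease of neutrophil granules, fell by 1.28 ± 0.21 (adjusted p = 0.0076). The neutrophil elastase gene Elane differed by -0.80 ± 0.23 (adjusted p = 0.063, and 0.0040 with the block). The activators Pcsk5, Pcsk6, Plat, Klkb1, Hpn, Tmprss2, Tpsab1 and Cma1 were below the detection filter.

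Among inhibitors, binding partners and clearance receptors, 4 of 11 tested genes rose and 1 fell, with a median difference of 0.25. Lcn2, a lipocalin that binds human MMP9, averaged 6.83 ± 0.10 in MR-positive cells and 9.74 ± 0.08 in MR-negative cells (SD, n = 3 each) and fell by 2.92 ± 0.12 (limma adjusted p = 5.1e-05). Lrp1, an endocytic receptor that clears MMP9 and MMP13, rose by 1.00 ± 0.19 (adjusted p = 0.015), a call that was lost on dropping M3 of the MR-positive arrays (0.057) or M2 of the MR-negative arrays (0.057), and with no detection filter (0.070). The tetraspanins Cd151 (0.99 ± 0.15, adjusted p = 0.0062) and Cd63 (0.96 ± 0.13, adjusted p = 0.0031), which associate with MMP14 at the membrane, rose, although the difference of another Cd63 probe, 0.51 ± 0.17, missed the threshold (adjusted p = 0.091). Cd44, the hyaluronan receptor that docks MMP9, rose by 0.71 ± 0.19 on its brightest probe (adjusted p = 0.0445). It missed the threshold on dropping M1 (0.091), M2 (0.078) or M3 (0.154) of the MR-positive arrays, or M2 (0.136) or M3 (0.157) of the MR-negative arrays, with equal medians (0.082) and with no filter (0.144). Its 7 probes ranged from 0.13 to 0.71. Reck, a membrane-anchored MMP inhibitor singled out after its values were seen, differed by -0.44 ± 0.16 (adjusted p = 0.12, and 0.018 with the block).

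Few matrix substrates were measurable. Of 24 with a probe 18 were below the detection filter, among them Col1a1, Col1a2 and Col3a1, and of the 6 tested genes 1 rose. This was Col18a1, a collagen of basement membranes, which was detected on all MR-positive and no MR-negative arrays and was at least 1.54-fold higher (limma adjusted p = 0.0085). With the block Fn1, fibronectin, passed too (0.74, adjusted p = 0.041), beside an adjusted p of 0.44 without it. By title number this Fn1 difference was 0.10, 1.36 and 0.77 for M1, M2 and M3. Another Fn1 probe differed by 0.25 ± 0.23 (limma adjusted p = 0.55 without the block).

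Of the promoter factors, 2 of 18 tested genes rose, and with the block 4 rose and 1 fell. Pparg, a nuclear receptor, rose by 1.60 ± 0.25 (limma adjusted p = 0.0061) with 0.58 ± 0.17 on another probe that did not pass. Cebpb rose by 0.51 ± 0.12 (adjusted p = 0.027) and missed the threshold on dropping M2 (0.108) or M3 (0.0996) of the MR-positive arrays or M2 (0.081) or M3 (0.0999) of the MR-negative arrays, with cyclic loess (0.053) or with equal medians (0.27). The AP-1 genes did not pass: Fos differed by 0.07 ± 0.37, Fosb by 0.01 ± 0.62, Fosl2 by 0.03 ± 0.21, Jun by 0.18 ± 0.16, Junb by 0.43 ± 0.38 and Jund by -0.07 ± 0.16, and they were singled out because the windows of Mmp13 and Mmp12 hold an AP-1 match. With the block Junb (adjusted p = 0.031) and Ets2 (0.018) rose and Etv5 (0.017) fell.

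**Figure D4:**
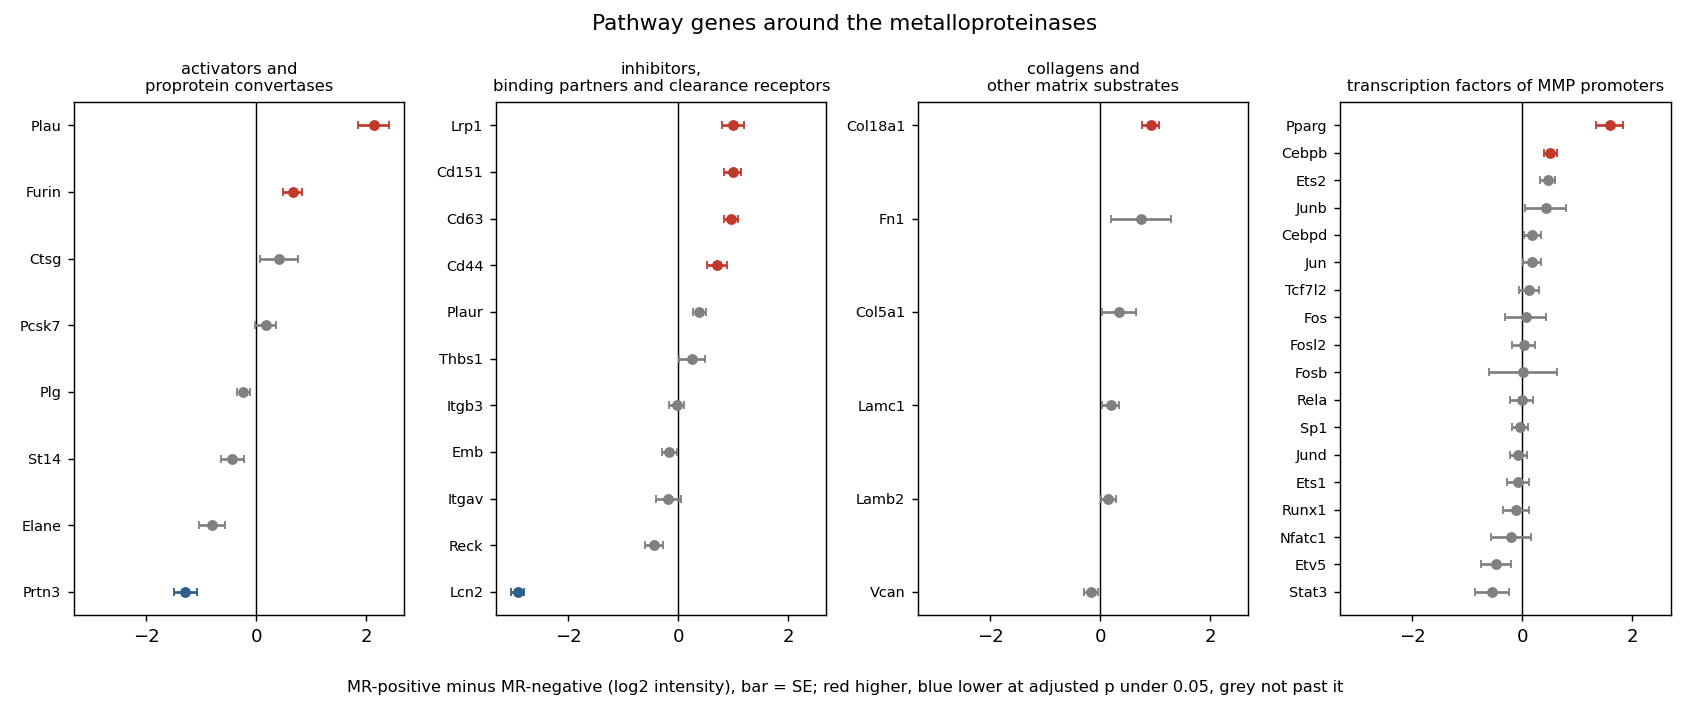
MR-positive minus MR-negative log2 intensity with the SE of the fit for every tested gene of 4 lists, red where higher and blue where lower at an adjusted p under 0.05 and grey otherwise. Plau at 2.14 and Pparg at 1.60 lie farthest right, and Lcn2 at -2.92 and Prtn3 at -1.28 farthest left.

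Markers of other cell types moved with the population too, and their part in the differences above was not tested. The marker lists were also chosen with earlier results of these data known, so their counts and p-values are a description. Of 8 tested dendritic cell markers 6 fell and 1 rose, and their summed intensity was 15629 to 19772 in MR-positive cells, against 28703 to 33515 in MR-negative cells. That sum is mostly Cd74 and H2-Ab1, with mean log2 levels of 13.39 and 12.68 in MR-positive cells, against 13.90 and 13.87 in MR-negative cells. Zbtb46, undetected in MR-positive cells, fell at least 3.04-fold, Ciita fell by 2.34 ± 0.38 and Irf4 by 1.34 ± 0.21, while Itgax rose by 1.22 ± 0.19 (limma adjusted p = 0.00052 to 0.0073 for these 4). Another Itgax probe differed by 0.49 ± 0.14 and did not pass (limma adjusted p = 0.057). On dropping M3 of the MR-negative arrays, 4 of the dendritic cell markers fell. All 7 tested markers of mature dendritic cells fell, among them Il4i1 (-3.99 ± 0.19), Fscn1 (-3.74 ± 0.22) and Ccr7 (-3.23 ± 0.28), with sums of 1432 to 1634 in MR-positive cells, against 5620 to 7935 in MR-negative cells. On dropping M3 of the MR-positive arrays 5 of these markers fell, and likewise on dropping M2 or M3 of the MR-negative arrays.

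Of 8 tested macrophage markers 2 rose, Mertk by 2.10 ± 0.28 and C1qc by 1.27 ± 0.28 (limma adjusted p = 0.0033 and 0.026), while C1qb differed by 1.23 ± 0.36 (0.062) and Cd14 by 0.66 ± 0.18 (0.053). The other 4 had negative differences that did not pass, Fcgr1 -0.63 ± 0.30 (0.22), Adgre1 -0.18 ± 0.14 (0.49), C1qa -0.10 ± 0.15 (0.74) and Csf1r -0.08 ± 0.16 (0.80). The sums of the 8 markers were 9042 to 9921 in MR-positive cells, against 6535 to 8268 in MR-negative cells. Bright genes weigh most in such a linear sum. The brightest here was Cd14, at a mean log2 level of 12.27 in MR-positive cells and 11.61 in MR-negative cells. Cd163 was detected on no array. With the block Mertk, C1qc, C1qb and Cd14 rose and Fcgr1 fell (adjusted p = 0.0046). The number that rose was 3 on dropping M2 of the MR-positive arrays, and 1 on dropping M3 of the MR-positive or M2 or M3 of the MR-negative arrays. Of the osteoclast markers 4 of 9 were tested. Ctsk rose by 1.93 ± 0.25 and Dcstamp by 1.80 ± 0.14, and Car2 fell by 1.26 ± 0.21 (adjusted p = 0.0030, 0.00034 and 0.0073). Nfatc1 did not pass, at -0.20 ± 0.37 (adjusted p = 0.79), and its probes ranged from -0.78 to -0.05. The sums of these 4 were 1712 to 1775 in MR-positive cells, against 646 to 774 in MR-negative cells, and Ctsk was the brightest. Calcr and Atp6v0d2 were detected on no array, and Acp5, Ocstamp and Oscar on 1 each. Of 12 fibroblast markers, whose cells are a usual source of Mmp2, Mmp13 and Mmp14, Thy1 alone was tested (-0.72 ± 0.23, adjusted p = 0.087, and 0.0022 with the block). Its level was 19.3 to 30.5 in MR-positive cells, against 31.8 to 51.1 in MR-negative cells on the linear scale, 10 of the others were detected on no array, and Bgn was detected on 1.

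Neutrophil and granulocyte precursor markers matter beside Mmp8, Mmp9 and Mmp25, which neutrophils store. Of 11 tested markers 2 fell, Lcn2 and Prtn3, and S100a9 differed by -1.41 ± 0.48 (limma adjusted p = 0.10). Only Ctsg (0.42 ± 0.35, adjusted p = 0.51) and Csf3r (0.27 ± 0.16, adjusted p = 0.35) had positive differences. The summed intensity was 3573 to 5951 in MR-positive cells, against 6453 to 18522 in MR-negative cells, with the highest value on M1. S100a8 was the brightest, at a mean log2 level of 11.64 in MR-positive cells and 12.75 in MR-negative cells. Its populations overlapped, and its difference of -1.11 ± 0.41 did not pass (adjusted p = 0.13). With the block 8 fell, and 5 fell on dropping M1 of the MR-positive or M2 of the MR-negative arrays. Cxcr2 and Retnlg were detected on no array. Of 3 tested T and NK cell markers Cd3g fell by 5.98 ± 0.30, Cd3d, detected on no MR-positive array, fell at least 13.7-fold, and Cd2, detected on no MR-negative array, rose at least 1.95-fold (adjusted p = 6.4e-05, 0.00092 and 0.0017). The sums of these 3 were 92.8 to 117 in MR-positive cells, against 1657 to 3577 in MR-negative cells, where Cd3g was the brightest (mean log2 level 11.17, beside 8.32 for Cd3d). Cd3e, Ncr1, Klrb1c and Cd247 were below the detection filter. The brightest Cd3e probe was detected on 1 of 6 arrays, an MR-negative one. The 1 tested B cell marker, Cd79b, differed by -0.04 ± 0.21 (adjusted p = 0.92) at 23.0 to 37.4 in MR-positive cells, against 24.6 to 32.3 in MR-negative cells. Of the 4 tested mast cell and basophil markers none passed by limma, with sums of 437 to 662 in MR-positive cells, against 325 to 575 in MR-negative cells. Kit differed by 0.50 ± 0.32 (adjusted p = 0.37, and 0.027 with the block). The other tested markers had negative differences that did not pass, Cpa3 -0.37 ± 0.24 (0.37), Gata2 -0.33 ± 0.13 (0.14) and Fcer1a -0.11 ± 0.16 (0.73).

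**Figure D5:**
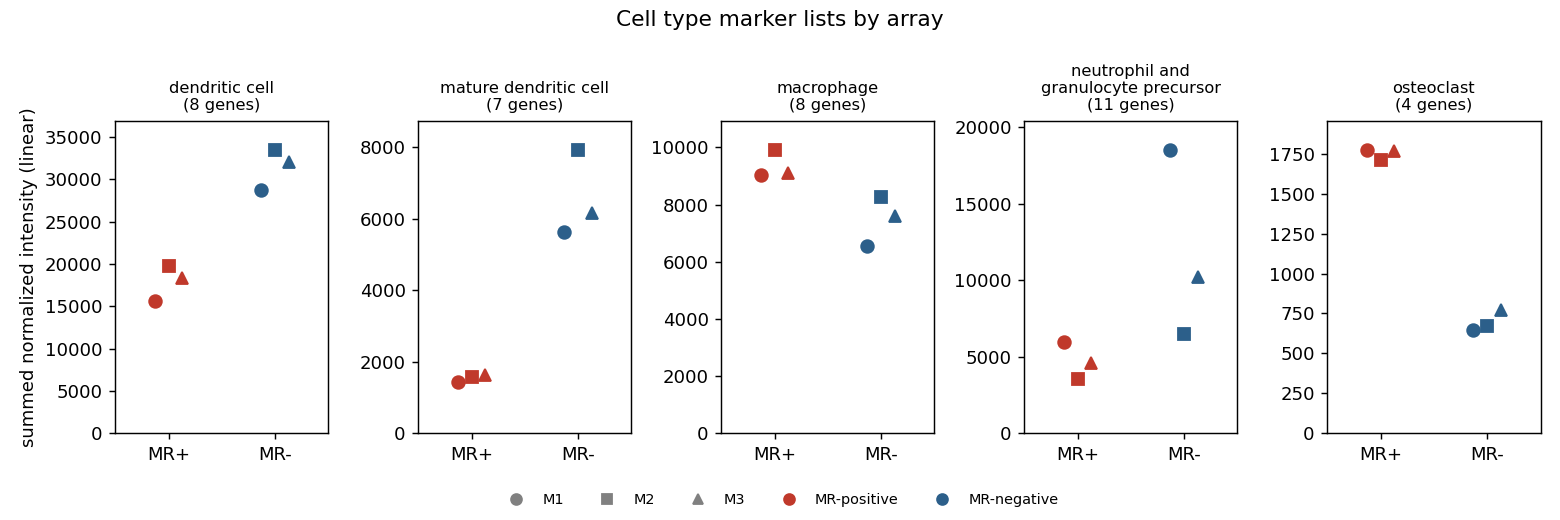
Summed linear normalized intensity of the tested markers of 5 cell types, 1 probe per gene, for each array, MR-positive on the left and MR-negative on the right; symbols stand for M1 to M3 and each axis starts at 0. The dendritic, mature dendritic and neutrophil sums are lower in all MR-positive arrays than in any MR-negative array, and the macrophage and osteoclast sums are higher. The M1 MR-negative array stands at 18522 for neutrophil markers. Bright genes weigh most in a sum, and Cd14 is the brightest of the macrophage markers. Cd74 and H2-Ab1 are the brightest of the dendritic, S100a8 of the neutrophil and Ctsk of the osteoclast markers. Il4i1 is the brightest of the mature dendritic markers in MR-negative cells.

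The genes whose profiles over the 6 arrays lay nearest to those of Mmp13 and Mmp14 were taken by the root mean square distance between profiles centred on their own mean, as a description. For Mmp13 the 5 nearest probes belonged to Igf1, an insulin-like growth factor (distances 0.41 and 0.42 for its probes), Cck, a peptide hormone precursor (0.50), and Gstm2, a glutathione transferase (0.52 and 0.59). For Mmp14 they belonged to Orm1, an acute phase plasma protein (0.33), Gstm2 (0.34 and 0.39), Gprc5b, an orphan receptor (0.36), and Pf4, a chemokine (0.41). Gstm2 and Orm1 have close relatives in the genome that their probes may also bind.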

How the data were processed

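RNA of sorted MR-positive and MR-negative cells was hybridised to Illumina bead arrays. The deposited table gives each probe's intensity on a linear scale with no background subtraction or scaling between arrays visible, and per the file headers a p-value beside each, read as a detection p because it falls as the signal rises in steps of 1 in 936. The authors' quantile normalized intensity of each probe, from a second deposited table, served as an alternative. Scanner software is not given in the sources used here.

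With limma 3.58.1 in R 4.3.3, neqc corrected background from the detection p, added an offset of 16, quantile normalized and took log2. The offset shrinks differences of dim probes. Probes detected at a p under 0.05 on at least 3 of 6 arrays were fitted across all genes with lmFit and eBayes, with population as the single term, two-sided, and Benjamini-Hochberg adjustment over 16686 probes. This fit was tested on simulated data. Differences are MR-positive minus MR-negative with the SE of the fit. Of 45281 probes 34885 had a single gene symbol, 18 several and 10378 none. The tested probe with the highest mean stood for a gene outside the member list. Where a population did not detect a probe on every array, a fold is a lower bound against the higher of its own level and the lowest detected level of each array.

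The members and lists were chosen with earlier results of these data known. Named genes were all members, per pathway list up to 5 genes of largest change that passed (failing any, the 2 of smallest p), up to 3 per marker list, the 5 nearest probes for Mmp13 and Mmp14, and Mrc1, and others where the text says so or where a list had 5 or fewer calls. Whether the title numbers pair the samples was checked by correlating deviations from the population means, which are not independent among 3 arrays. The correlation was 0.71 for M1, 0.57 for M2 and 0.28 for M3. The unmatched pairs of M2 and M3 reached 0.38 (MR-positive M2 with MR-negative M3) and 0.29 (MR-positive M3 with MR-negative M2), so M1 stood apart while M2 and M3 were not told apart by number. Alternatives were an offset of 50, the authors' normalized table, equal medians, cyclic loess, no filter, a detection p under 0.01, leaving out arrays, and the number as a block.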

Additional observations from a re-analysis of the deposited data

How the results depend on the processing

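The count of all probes past the threshold was 2298. It was 4628 with the replicate block, and ranged from 1151 to 2544 when single arrays were left out (without M2 and M3 in turn, 1172 and 1159 for the MR-positive arrays and 1355 and 1151 for the MR-negative arrays). Pathway genes past it numbered 11, against 18 with the replicate block and 7 to 11 with single arrays left out (7 on dropping M3 of the MR-positive or M2 of the MR-negative arrays). Member probes past it numbered 10 under the authors' table, cyclic loess, equal medians, a stricter detection p, the block and without both M1 arrays. They numbered 9 with an offset of 50 or no filter, and 9 to 10 with single arrays left out; each time the dimmest Mmp13 probe was the one lost. With equal medians the share of calls in the higher direction was 30.6%, against 52.2% otherwise, the median of all tested probes was -0.11, and Mmp12 differed by 1.35 instead of 1.61. The 182 recomputed member differences include those with no filter, a stricter detection p or the block, which cannot change a difference of means. Of the 182, 170 moved by less than the spread between replicates. The other 12 were mostly smaller differences of dim probes: with an offset of 50, Mmp25 differed by -1.41, Mmp19 by 0.71, Timp1 by 0.87 and 0.85, Mmp14 by 2.35, and the dimmer Mmp13 probes by 2.26 and 0.30. The block changed no call of a member.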
